A study of Mus musculus with 8 samples.

Results

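The 8 genes described here set how a cell stores and moves zinc, and were taken by their symbols from a table of 22520 genes and assembled transcripts. They comprise the metallothioneins *Mt1* and *Mt2*, the transcription factor gene *Mtf1*, the zinc exporters *Slc30a1* and *Slc30a5*, and the zinc importers *Slc39a6*, *Slc39a10* and *Slc39a14*. All 8 symbols were found once each, and all 8 passed the filter on low values. Their levels were compared between mouse splenic CD8+ T cells cultured with DMSO (4 libraries) and with 40 µM DADA (4 libraries). DADA is diisopropylamine dichloroacetate, an inhibitor of the pyruvate dehydrogenase kinases, and DMSO is its solvent. The purified cells of both groups were kept under antibodies against CD3 and CD28 with IL-2 throughout, DADA or solvent was present from day 3, and RNA was taken on day 6. No engineered allele was named for either group, although the genotype field of the labels reads "control" for DMSO and "model" for DADA. The labels give neither strain nor age. The methods list C57BL/6J among the mice used, all listed as 6 to 8 weeks old, without tying a strain to these cultures. For its exhaustion cultures the paper names spleens of wild-type mice. The study calls the 4 samples of a group biological replicates without saying that each came from its own mouse, so p-values measure the spread between these cultures.

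Metallothioneins are small cysteine-rich proteins that hold zinc and copper in the cytosol. When free zinc rises, the factor MTF-1 binds metal response elements in the promoters of *Mt1*, *Mt2* and *Slc30a1* and raises their transcription. ZnT proteins, encoded by the Slc30 family, carry zinc out of the cytosol, either across the plasma membrane or into organelles, and ZIP proteins, encoded by the Slc39 family, carry it into the cytosol. T cells take up zinc during activation, and their metallothionein genes are known to respond to zinc and to glucocorticoids.

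The values are FPKM, which scale the fragments of a gene by its transcript length and by the depth of the library. A comparison of levels between genes thus rests on the transcript length assumed for each. A difference was called when limma gave a Benjamini-Hochberg adjusted p under 0.05 over the 10666 genes with 1 FPKM or more in 4 or more libraries. Each log2 fold change was computed from log2(FPKM + 1), which understates the change of low genes. Of all genes tested, 30.9% were called higher and 35.3% lower with DADA, and in 60.6% the 4 DADA values and the 4 DMSO values did not overlap. Large rises were rarer, since 383 genes rose by at least 1 on the log2 scale and the middle 95% of genes lay between -0.64 and 1.21. Sorted from the largest rise, *Mt1* and *Mt2* ranked 72 and 121. The estimated depth was 13670000 to 16410000 fragments for DMSO and 15090000 to 18500000 for DADA. The median coefficient of variation among replicates was 4.05% for DMSO and 3.90% for DADA. The 5 CD8 and CD3 markers lay at 72.0 FPKM or higher in every library, and their summed level was 674 to 680 FPKM with DMSO and 776 to 805 FPKM with DADA. Summed over 6 genes, myeloid markers stayed at 0 to 0.0883 FPKM with DMSO and 0.0529 to 0.188 FPKM with DADA, with *Csf1r*, *Adgre1* and *S100a8* at 0 throughout. Both NK markers together gave 0 to 0.0959 FPKM with DMSO and 0.144 to 0.336 FPKM with DADA. The B cell marker *Cd79b* lay at 2.42 to 3.47 FPKM with DMSO and 2.18 to 2.90 FPKM with DADA, while *Cd79a* stayed at or below 0.190 FPKM and *Ms4a1* at or below 0.0288 FPKM in every library. Of the 3 CD4 T cell markers, *Cd4* and *Foxp3* were below the filter, and the sum of 16.1 to 17.2 FPKM with DMSO and 15.2 to 15.7 FPKM with DADA was nearly all *Zbtb7b*. The 3 erythroid markers summed to 0 to 0.169 FPKM with DMSO and 0 to 0.0987 FPKM with DADA. The part of the marker shifts in the results was not tested. In bulk RNA, fewer cells that express a gene and less of its RNA per cell cannot be told apart.

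Of the 8 genes, *Mt1*, *Mt2*, *Slc39a10* and *Slc39a14* were called higher with DADA, *Slc30a1* was called lower, and *Mtf1*, *Slc30a5* and *Slc39a6* did not pass the test. The median log2 fold change of the 8 was 0.25, beside -0.02 over all genes tested. A count of 5 called among 8 is near the share called among all genes, so nothing is read from the count itself.

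**Figure D1:**
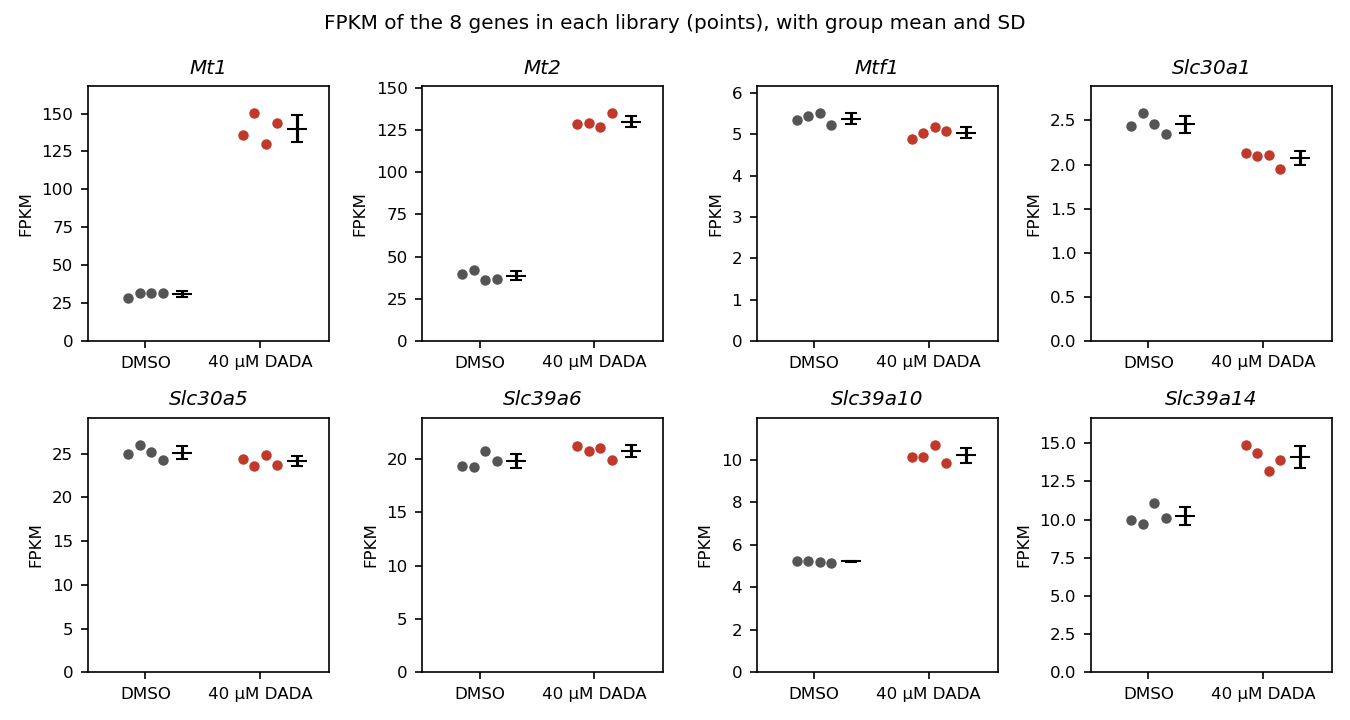
FPKM (vertical axes, each from 0) of the 8 genes in the 4 DMSO libraries (grey) and the 4 libraries with 40 µM DADA (red), with group mean and SD as black bars. *Mt1* sits at 28.5 to 31.9 with DMSO and 130 to 150 with DADA, while the groups of *Slc30a5* and *Slc39a6* overlap.

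*Mt1* (ENSMUSG00000031765) encodes metallothionein 1. It measured 28.5, 31.8, 31.8 and 31.9 FPKM in DMSO replicates 1 to 4, and 136, 150, 130 and 144 FPKM in DADA replicates 1 to 4. Every DADA library lay far above every DMSO library, and DMSO replicate 1 was the lowest of its group. The mean was 31.0 ± 1.68 with DMSO and 140 ± 8.78 FPKM with DADA (SD, n = 4 each), a ratio of 4.52. The log2 fold change was 2.14 (SE 0.0504, 95% interval 2.03 to 2.25, adjusted p = 2.69e-10). This change ranked 72 among the 10666 genes when sorted from the largest rise.

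*Mt2* (ENSMUSG00000031762), which encodes metallothionein 2 and neighbours *Mt1* on chromosome 8, measured 39.8, 41.9, 36.3 and 37.0 FPKM with DMSO. With DADA it measured 129, 129, 127 and 135 FPKM, again with no overlap between the groups. The mean went from 38.7 ± 2.62 to 129.9 ± 3.42 FPKM (SD, n = 4 each), a ratio of 3.35. The log2 fold change was 1.72 (SE 0.0440, 95% interval 1.62 to 1.82, adjusted p = 4.86e-10), at rank 121.

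By FPKM, the order of the metallothionein genes turned over between the conditions. Which gene stands higher within a group also rests on the transcript length assumed for each. *Mt2* stood above *Mt1* in 4 of 4 DMSO libraries, with *Mt1* at 0.714 to 0.877 of *Mt2*. *Mt1* stood above *Mt2* in 4 of 4 DADA libraries, at 1.02 to 1.16 of *Mt2*, although their ranges across DADA libraries overlapped. The log2 ratio of *Mt1* to *Mt2* within a library, taken on FPKM + 1 as for the other ratios, rose by 0.42, and the exact two-sided permutation test over 70 assignments gave p = 0.0286, the smallest it can give, and an adjusted p of 0.0286 over the 5 ratios tested. The ranges of *Mt1* and *Mt2* in each group already fixed this p, so it adds nothing to them. The other metallothioneins stayed low. *Mt3*, known for its expression in brain, had 1.02 ± 0.246 FPKM with DMSO and 1.24 ± 0.465 with DADA (SD, n = 4 each), with a log2 fold change of 0.12 (95% interval -0.23 to 0.47, adjusted p = 0.505), and *Mt4* was listed at 0 in all 8 libraries. Together the 4 metallothionein genes gave 69.4 to 74.7 FPKM with DMSO and 259 to 281 FPKM with DADA.

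*Mtf1* (ENSMUSG00000028890), the gene of the zinc-sensing factor MTF-1, measured 5.35, 5.44, 5.5 and 5.21 FPKM with DMSO. It measured 4.87, 5.03, 5.18 and 5.07 FPKM with DADA. The highest DADA value lay just under the lowest DMSO value. The means were 5.38 ± 0.126 and 5.04 ± 0.126 FPKM (SD, n = 4 each), and the log2 fold change of -0.08 (95% interval -0.17 to 0.01) did not pass the test (adjusted p = 0.106). The exact permutation test of this single gene gave p = 0.0286, unadjusted and the smallest it can give. This restates that the groups did not overlap, as in 60.6% of all genes tested. *Mtf1* was called lower under quantile normalization and when the variance was fitted without a trend. The upper end of the interval, at 0.01 on the log2 scale, holds for the main setting alone. After rescaling to the same total the change was -0.06 (SE 0.0467), so a small rise of the *Mtf1* transcript is not excluded.

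*Slc30a1* (ENSMUSG00000037434) encodes ZnT1, which exports zinc across the plasma membrane. It measured 2.44, 2.58, 2.46 and 2.35 FPKM with DMSO and 2.13, 2.10, 2.11 and 1.95 FPKM with DADA. All DADA values lay below all DMSO values. The mean fell from 2.46 ± 0.0960 to 2.07 ± 0.0807 FPKM (SD, n = 4 each), with a log2 fold change of -0.17 (SE 0.0501, adjusted p = 0.0125), and of -0.30 under quantile normalization. *Slc30a1* and the metallothionein genes thus moved in opposite directions, and the log2 ratio of *Slc30a1* to *Mt1* fell by 2.31. Since both genes separated the groups in opposite directions, the exact permutation p of this ratio had to be 0.0286 and adds nothing to their calls. In FPKM that ratio was 0.0737 to 0.0858 with DMSO and 0.0136 to 0.0162 with DADA.

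To show the sequence in which metal response elements are looked for, the 250 bases before the RefSeq start of *Mt1*, *Mt2* and *Slc30a1* are printed 5′ to 3′ on the strand of the gene, in build GRCm38.p6. All lie on the plus strand, at chr8:94178839-94179088, chr8:94172368-94172617 and chr1:191906531-191906780. Capitals mark the core of the element, searched as TGCACNC and TGCGCNC on both strands, so that a match on the opposite strand reads as its reverse complement.
Mt1: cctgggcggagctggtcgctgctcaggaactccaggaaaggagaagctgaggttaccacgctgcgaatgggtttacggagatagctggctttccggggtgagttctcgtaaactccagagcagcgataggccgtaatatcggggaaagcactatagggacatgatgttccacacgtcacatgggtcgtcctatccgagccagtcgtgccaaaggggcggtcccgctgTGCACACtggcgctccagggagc
Mt2: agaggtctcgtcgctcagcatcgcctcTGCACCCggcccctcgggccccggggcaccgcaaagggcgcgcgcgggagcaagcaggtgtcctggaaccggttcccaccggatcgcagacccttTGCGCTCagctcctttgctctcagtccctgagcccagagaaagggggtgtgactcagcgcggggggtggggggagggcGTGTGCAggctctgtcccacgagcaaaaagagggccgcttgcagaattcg
Slc30a1: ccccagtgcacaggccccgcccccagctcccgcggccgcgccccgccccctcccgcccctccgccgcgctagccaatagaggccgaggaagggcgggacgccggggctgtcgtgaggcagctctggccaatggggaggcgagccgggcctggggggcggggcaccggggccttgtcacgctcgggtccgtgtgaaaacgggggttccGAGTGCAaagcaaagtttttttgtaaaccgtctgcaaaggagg

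These windows held 1 core match for *Mt1*, 3 for *Mt2* and 1 for *Slc30a1*. Over the 32851 RefSeq promoters of the mouse table, 21.4% held at least 1 match, 5.17% at least 2 and 1.26% at least 3 in the same 250 bases. *Slc30a5* had 1 match, and *Mtf1* and both promoters of *Slc39a10* had 0. *Slc39a6* and *Slc39a14* were not analysed here.

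The RefSeq start of *Mt1* lies 222 bases, that of *Mt2* 230 bases and that of *Slc30a1* 226 bases before the start codon, and GENCODE M21 lists further starts of *Mt1* and *Mt2* inside that stretch, so the search was carried on to the start codon. This raised the matches to 5 for *Mt1*, 7 for *Mt2* and 2 for *Slc30a1*, over 472, 480 and 476 bases, and no share of all genes was computed for these regions. The matches past the RefSeq start of the metallothionein genes are printed with 4 bases on either side, since they lie closest to the coding sequence. All but the first of *Mt2* fall in the annotated 5′ UTR of a GENCODE transcript, and they read as follows on the strand of the gene, with the core in capitals.
Mt1, 220 bases before the start codon: gctcTGCACTCcgcc
Mt1, 202 bases before the start codon: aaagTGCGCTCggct
Mt1, 138 bases before the start codon: tgctGGGTGCAaacc
Mt1, 124 bases before the start codon: ccttTGCGCCCggac
Mt2, 226 bases before the start codon: ggtcGTGCGCAggcc
Mt2, 172 bases before the start codon: gggcGTGTGCAggcg
Mt2, 153 bases before the start codon: gggcGCGTGCAtggt
Mt2, 119 bases before the start codon: ctttTGCGCTCgacc

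The match nearest to the start codon was 124 bases before it in *Mt1*, 119 bases in *Mt2* and 196 bases in *Slc30a1*. Up to the start codon both metallothionein genes carried more core matches than *Slc30a1*, but in the 250 bases before the RefSeq start *Mt1* and *Slc30a1* had 1 each. A link between the number of matches and the changes with DADA was not tested. A match is a run of letters and does not show that MTF-1 was bound.

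**Figure D2:**
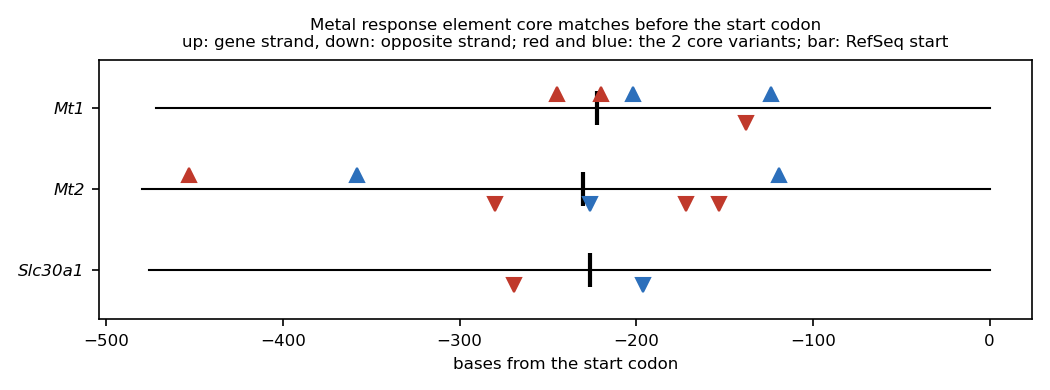
Positions of metal response element core matches (triangles) in bases from the start codon for *Mt1*, *Mt2* and *Slc30a1*. Black lines span the region searched, vertical bars mark the RefSeq start, and *Mt1* has 5 matches, *Mt2* 7 and *Slc30a1* 2.

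*Slc30a5* (ENSMUSG00000021629) encodes ZnT5, which with ZnT6 loads zinc into the secretory pathway. It measured 24.9, 26.0, 25.2 and 24.3 FPKM with DMSO and 24.3, 23.6, 24.9 and 23.7 FPKM with DADA, and the groups overlapped. The log2 fold change was -0.06 (95% interval -0.12 to 0.01, adjusted p = 0.132). By FPKM it was the most abundant transporter of the 8 genes in both conditions. *Slc30a1* fell relative to it, by 0.11 on the log2 ratio, and by 0.18 with a pseudocount of 0.1 (exact permutation p = 0.0286 for both).

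Beyond the 8 genes, the ZnT family had 4 other members above the filter, of which 3 were called higher, 0 lower and 1 neither way. Over all genes tested 30.9% were called higher and 35.3% lower, and nothing is read from a count of so few genes. *Slc30a9*, linked to zinc export from mitochondria, was at 14.4, 15.1, 15.3 and 15.5 FPKM with DMSO and 21.7, 22.2, 23.3 and 21.3 FPKM with DADA (log2 fold change 0.53, adjusted p = 7.15e-07). *Slc30a7*, a transporter of the Golgi, went from 5.10 ± 0.242 to 6.53 ± 0.114 FPKM (log2 fold change 0.30, adjusted p = 0.000126). *Slc30a4*, a transporter of intracellular vesicles, went from 18 ± 0.524 to 21.5 ± 0.740 FPKM (log2 fold change 0.25, adjusted p = 0.000125). The ZnT5 partner *Slc30a6* had overlapping groups (log2 fold change -0.07, adjusted p = 0.257). Of the 6 ZnT genes tested, *Slc30a1* alone was called lower, and *Slc30a2*, *Slc30a3*, *Slc30a8* and *Slc30a10* were below the filter. The summed level of the 10 ZnT genes was 76.3 to 77.6 FPKM with DMSO and 85.0 to 89.4 FPKM with DADA.

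*Slc39a10* (ENSMUSG00000025986) encodes ZIP10, a zinc importer of the plasma membrane known from B cell signalling. It measured 5.26, 5.25, 5.22 and 5.16 FPKM with DMSO and 10.2, 10.2, 10.7 and 9.86 FPKM with DADA. Each DADA library was close to 2 times the DMSO level, and the DMSO replicates differed by little. The mean went from 5.22 ± 0.0441 to 10.2 ± 0.355 FPKM (SD, n = 4 each), a ratio of 1.96, with a log2 fold change of 0.85 (SE 0.0375, adjusted p = 2.74e-08). This change ranked 510 among all genes.

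*Slc39a6* (ENSMUSG00000024270) encodes ZIP6, the closest relative of ZIP10, with which it can form a complex. It measured 19.3, 19.2, 20.7 and 19.8 FPKM with DMSO and 21.2, 20.7, 21.0 and 19.9 FPKM with DADA, and the groups overlapped. The log2 fold change was 0.06 (95% interval -0.01 to 0.14, adjusted p = 0.119), and it passed the test in 1 alternative, when each library was rescaled to the same total. *Slc39a10* was at 0.252 to 0.273 of *Slc39a6* with DMSO and at 0.479 to 0.509 with DADA. Their log2 ratio rose by 0.79 (exact permutation p = 0.0286), and *Slc39a6* kept the higher FPKM. The ranges of both transcripts already fixed this p, so it adds nothing to the call of *Slc39a10*. *Slc30a1* was at 0.455 to 0.492 of *Slc39a10* with DMSO and at 0.197 to 0.210 with DADA, and this log2 ratio fell by 1.02. Its exact permutation p of 0.0286 was again fixed by the opposite separation of both genes.

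*Slc39a14* (ENSMUSG00000022094) encodes ZIP14, which imports zinc, iron that is not bound to transferrin, and manganese. It measured 9.97, 9.74, 11.1 and 10.1 FPKM with DMSO and 14.9, 14.4, 13.2 and 13.9 FPKM with DADA. The groups did not overlap, and the spread within each was wider than for *Slc39a10*. The mean went from 10.2 ± 0.597 to 14.1 ± 0.723 FPKM (SD, n = 4 each), a ratio of 1.38, with a log2 fold change of 0.43 (SE 0.0491, adjusted p = 3.00e-05), at rank 1301.

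The ZIP family had 8 other members above the filter, of which 4 were called higher and 2 lower, beside 30.9% and 35.3% of all genes tested. Nothing is read from this count. *Slc39a1*, an importer of the plasma membrane, went from 21.8 ± 0.758 to 28.9 ± 1.55 FPKM (log2 fold change 0.39, adjusted p = 1.89e-05). *Slc39a8*, which encodes the closest relative of ZIP14, went from 3.09 ± 0.229 to 3.87 ± 0.215 FPKM (log2 fold change 0.25, adjusted p = 0.00297). *Slc39a4*, known for zinc uptake in the intestine, and *Slc39a7*, which releases zinc from the endoplasmic reticulum, rose by 0.17 and 0.13 on the log2 scale (adjusted p = 0.00910 and 0.00790). The fall of *Slc39a11* was the largest among the zinc transporters tested. It measured 9.70, 10.0, 8.64 and 9.17 FPKM with DMSO and 6.17, 6.36, 5.91 and 5.39 FPKM with DADA (log2 fold change -0.58, adjusted p = 1.15e-05). *Slc39a3* went from 4.00 ± 0.325 to 3.45 ± 0.177 FPKM with overlapping groups (log2 fold change -0.17, adjusted p = 0.0299), and that call was lost in 8 of 15 alternatives. *Slc39a9* and *Slc39a13* had log2 fold changes of 0.04 and 0.05 (adjusted p = 0.339 and 0.579), and *Slc39a2*, *Slc39a5* and *Slc39a12* were below the filter. The summed level of the 14 ZIP genes was 142 to 149 FPKM with DMSO and 161 to 167 FPKM with DADA.

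**Figure D3:**
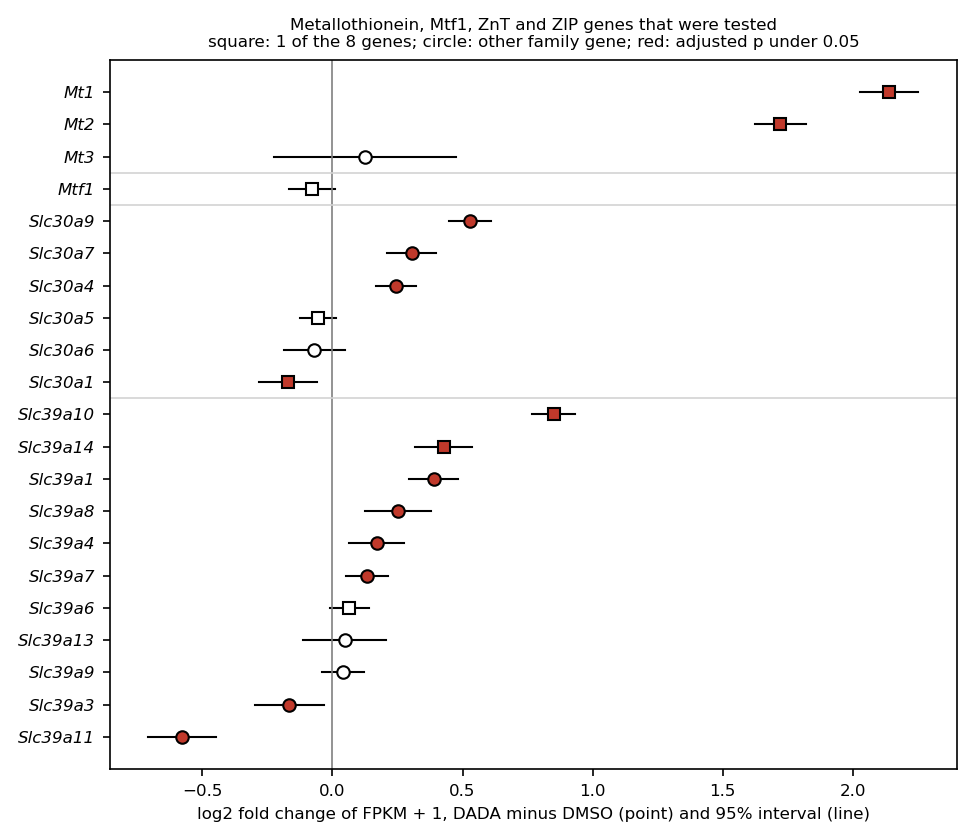
Log2 fold change of FPKM + 1, DADA minus DMSO (points), with 95% intervals (lines), for the tested metallothionein, ZnT and ZIP genes and *Mtf1*; squares are the 8 genes, circles other family genes, and red marks an adjusted p under 0.05. *Mt1* (2.14) and *Mt2* (1.72) lie far to the right, and *Slc39a11* (-0.58) lies lowest.

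By level in FPKM, the 8 genes kept much of their order. With DMSO the order from high to low was *Mt2*, *Mt1*, *Slc30a5*, *Slc39a6*, *Slc39a14*, *Mtf1*, *Slc39a10* and *Slc30a1*, and the ranges of *Mtf1* and *Slc39a10* were the only neighbouring ranges that overlapped. With DADA, *Mt1* came first and *Slc39a10* stood above *Mtf1*, and only the ranges of *Mt1* and *Mt2* overlapped. *Slc30a1* was lowest in both conditions.

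**Figure D4:**
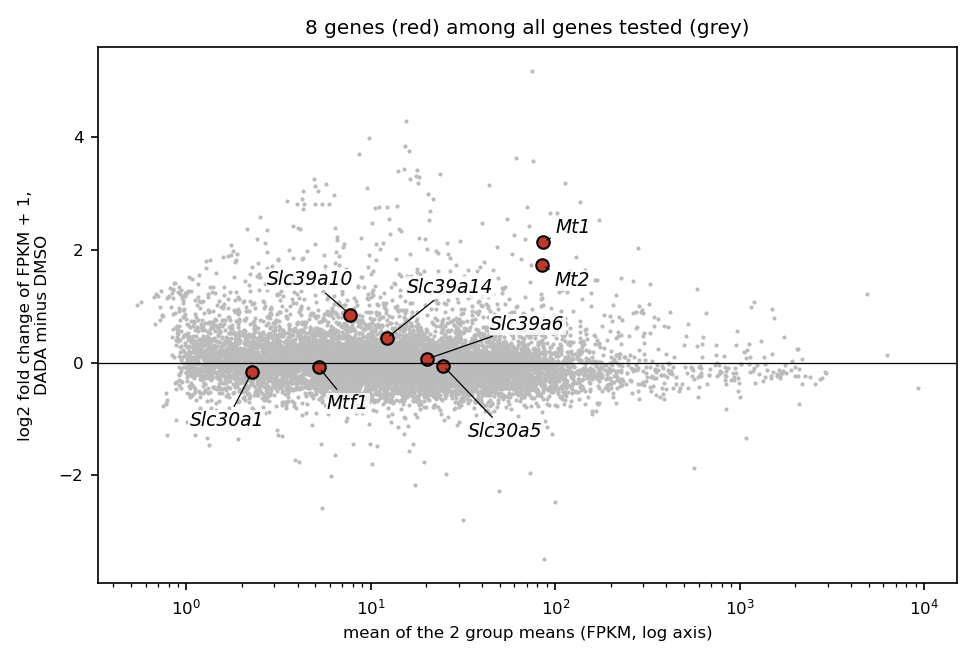
Log2 fold change of FPKM + 1, DADA minus DMSO, against the mean of both group means in FPKM (log axis) for the 10666 genes tested (grey) and the 8 genes (red, labelled). *Mt1* and *Mt2* stand above most genes of similar level, and *Slc30a5*, *Slc39a6* and *Mtf1* lie inside the bulk.

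Genes for copper and iron were counted beside those for zinc, because metallothioneins also bind copper and ZIP14 also carries iron. Of 10 copper genes tested, 4 were called higher and 3 lower, with a median log2 fold change of 0.10. Over all genes tested 30.9% were called higher and 35.3% lower, so nothing is read from this count. *Atp7b*, a copper-exporting ATPase, was at 0.0717, 0.104, 0.0996 and 0.121 FPKM with DMSO and 1.41, 1.5, 1.88 and 1.52 FPKM with DADA. It passed the filter through the DADA libraries alone, so its count among the 4 called higher is no support for them and no p is given. Its log2 fold change of 1.23 depends on the scale, with 3.08 at a pseudocount of 0.1, 1.90 after rescaling to the same total and 0.88 under quantile normalization. *Slc31a2*, a copper transporter of endosomes, had a log2 fold change of 0.26 (adjusted p = 0.0215) with overlapping groups, and that call was lost in 3 of 15 alternatives. *Commd1* and *Ccs*, which act in copper handling and in loading copper onto superoxide dismutase, fell by 0.27 and by 0.21 (adjusted p = 0.00648 and 0.00156). Of 12 iron genes tested, 4 were called higher and 4 lower, with a median of -0.02, and these counts too are near the shares over all genes. *Hmox1*, which degrades haem, went from 16 ± 0.607 to 23.7 ± 0.677 FPKM (log2 fold change 0.54, adjusted p = 4.75e-07). *Tfrc*, the transferrin receptor, went from 180.7 ± 1.6 to 244.9 ± 2.73 FPKM (log2 fold change 0.44, adjusted p = 2.05e-08). *Slc25a37*, the mitochondrial iron importer, and *Pcbp2*, an iron chaperone and RNA-binding protein, fell by 0.32 and by 0.17 (adjusted p = 2.27e-05 and 3.20e-05).

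Pearson's r with *Mt1* over the 8 libraries was taken on log2(FPKM + 1) for 8187 genes that averaged 5 FPKM or more. The genes most like *Mt1* were *Ccl4* (r = 0.999), *Tnfaip3* (0.999), *H2-Q2* (0.999), *Rnf114* (0.999) and *Tnfrsf9* (0.999). *Ccl4*, a chemokine, went from 58.3 ± 2.55 to 181 ± 6.77 FPKM. *Tnfaip3*, an inhibitor of NF-κB signalling, went from 25.8 ± 1.04 to 53.2 ± 0.850 FPKM, and *Tnfrsf9*, the costimulatory receptor 4-1BB, from 462 ± 2.15 to 850.0 ± 16.6 FPKM. *H2-Q2* went from 0.356 ± 0.164 to 11.1 ± 0.844 FPKM. It passed the filter through the DADA libraries alone, so its place among these genes is no support. It also belongs to a family of near-identical MHC genes whose reads can be divided between copies, so its value is uncertain. The 8 points form both groups, so r mainly reflects the difference between them, and 395 genes reached an r of 0.99 with *Mt1*. Among the other 7 genes the r with *Mt1* was 0.995 for *Mt2*, 0.993 for *Slc39a10*, 0.964 for *Slc39a14* and -0.931 for *Slc30a1*. For the genes that were not called it was -0.840 for *Mtf1*, -0.680 for *Slc30a5* and 0.651 for *Slc39a6*.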

How the data were processed

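RNA-seq of 8 libraries, 4 DMSO and 4 DADA by their titles, was analysed. The authors deposited a table of FPKM values made from paired reads, with 1 column for each library. Per the submitters' processing notes, HISAT2 2.0.5, StringTie 1.3.3, CASAVA 1.8.2, FastQC 0.11.9, Picard 1.41 and SAMtools 0.1.18 were used, and the builds GRCh38 and GRCm39 are named without roles. The labels and the methods name different library kits, and whether counting used strand is not stated. Depth is an estimate, as only 38.9% to 46.9% of low values lay within 0.1 of a whole fragment, so no count test was run.

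Values were tested as log2(FPKM + 1) with limma 3.58.1 in R 4.3.3 (lmFit, eBayes with trend), for genes with at least 1 FPKM in at least 4 libraries, with Benjamini-Hochberg adjustment over all of them. The fit was also run on simulated data in which far fewer genes changed than were called here, so that run does not vouch for these calls. Single values and ratios were tested with an exact two-sided permutation test. The 8 genes and the lists of metallothionein, ZnT, ZIP, copper, iron and marker genes were chosen with earlier results of these data known. Besides these 8, the text names each metallothionein, Slc30 and Slc39 gene, the 2 largest called changes in each direction of the copper and iron lists, and the 5 genes most like *Mt1*. Promoters come from RefSeq and transcripts from GENCODE M21, both GRCm38. Of 50-base windows in GENCODE transcripts, 0% for *Mt1*, *Mt2*, *Mtf1*, *Slc30a1* and *Slc39a6*, and at most 1.29% for the others, also occur in another gene. Alternatives were another pseudocount, filter, scaling, variance fit, the replicate block and leaving out each library.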

Additional observations from a re-analysis of the deposited data

Results flagged for a closer look

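Among 42 groups of 4 libraries over 21 genes of the zinc families, 3 held a library far from the other 3, measured as its gap to the nearest divided by the range of the group, and chance alone gives about 1 in 20. In DMSO replicate 1, *Mt1* was at 28.5 FPKM, below the 31.8 to 31.9 FPKM of the others (0.976 of the range). In DADA replicate 4, *Slc39a7* was at 49.9985 FPKM, below 52.7 to 53.2 FPKM (0.847 of the range). In DMSO replicate 3, *Slc39a8* was at 3.43 FPKM, above 2.94 to 3.02 FPKM (0.839 of the range).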

How the results depend on the processing

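The calls of *Mt1*, *Mt2*, *Slc39a10*, *Slc39a14* and *Slc30a1* and the lack of a call for *Slc30a5* held in every alternative that tested them, with log2 fold changes of 2.10 to 2.19, 1.69 to 1.77, 0.80 to 0.95, 0.40 to 0.48, -0.30 to -0.15 and -0.07 to -0.03. *Slc30a1* was not tested at a mean of at least 5 FPKM. *Mtf1* was called at -0.16 (adjusted p = 0.00488) under quantile normalization and at -0.0788 (adjusted p = 0.0393) without a trend, with adjusted p from 0.00488 to 0.305 over its alternatives. *Slc39a6* was called at 0.10 (adjusted p = 0.0459) after rescaling to the same total, with a range of 0.0459 to 0.251. The cause was not tested. *Mt3* turned to -0.11 and *Slc39a13* to -0.0672 under quantile normalization, and leaving out a library put *Slc39a13* between -0.0222 (without DMSO replicate 4) and 0.0821. *Mt3* was called at 0.28 without DADA replicate 1. *Slc31a2* lost its call under quantile normalization and without DMSO replicate 2 or DADA replicate 4 (0.13, 0.24 and 0.19). *Slc39a3* lost its call in 8 of 15 alternatives, at -0.17 without the filter, at -0.16 after rescaling, and at -0.16 to -0.14 without DMSO replicate 1, 2 or 4 or DADA replicate 1, 2 or 3. Called genes numbered 7064, and 5741 to 7868 in the alternatives. Pairing by replicate number was checked on the deviations of log2(FPKM + 1) from the group means. These correlated at -0.12 to 0.10 for same-numbered libraries and at -0.27 to 0.13 for the others, so no pairing was seen. With the replicate block 6995 genes and the same number of 5 of the 8 were called. The 5 ratios kept their direction and an exact permutation p of 0.0286, the smallest possible, with the other pseudocount and without any of the 8 libraries. For every ratio except *Slc30a1* to *Slc30a5* that p was fixed by the ranges of the single genes, so its constancy adds nothing there. *Atp7b*, at 0.0717 to 0.121 FPKM with DMSO, ranged from 0.88 to 3.08 and was not tested without a DADA replicate, and low FPKM values limit such genes.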
